A study of Vitis vinifera with 6 samples.

Results

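Transcript levels of 10 loci on grapevine chromosome 13, listed for this work as a tandem group of small heat shock proteins, were examined in fully expanded leaves of control plants and of plants labelled as overexpressing CARPO. The loci were chosen by their names, VIT_13s0019g02740, VIT_13s0019g02770, VIT_13s0019g02780, VIT_13s0019g02820, VIT_13s0019g02840, VIT_13s0019g02850, VIT_13s0019g02930, VIT_13s0019g03000, VIT_13s0019g03090 and VIT_13s0019g03160. Each had 1 probe among the 34369 probes of the array other than controls. The files carry no gene descriptions, and the reference table of grapevine genes held 0 of the 10 names. The family name therefore comes from the list alone and was not checked against a sequence or an annotation. No position or probe sequence is given for the same reason. How far the probes of near-identical tandem copies share signal was not tested.

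Small heat shock proteins are chaperones that bind partly unfolded proteins without using ATP and hold them in a state from which other chaperones can refold them. In plants many of them are encoded by small families of similar genes. Their transcripts are usually scarce in unstressed leaves and are strongly raised by heat through heat stress transcription factors, and some are also made during seed maturation.

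Per the labels, all plants were Vitis vinifera of the red cultivar Syrah (clone BVRC12), raised from anther-derived callus and grown in a greenhouse, and total RNA of the leaves was labelled with the dye Cy3 for Agilent arrays. The control group held 3 arrays from control plants, and the other group held 3 arrays from plants stably overexpressing CARPO, a NAC transcription factor that, by the title of the series, controls the start of maturation and ripening. The labels used here give neither the promoter of the transgene nor the line behind each array, and whether the controls carried an empty construct is not stated there. In bulk leaf RNA, fewer cells of a type and less RNA per cell cannot be told apart. The leaf identity of the samples was not checked, since nothing used here names leaf marker genes among the loci.

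The probe of VIT_08s0007g07670, taken as CARPO from knowledge of the study outside the files, had an intensity of 12.4 to 50.4 on the control arrays. On the labelled overexpression arrays it was 10.1, 15.1 and 271, so that it exceeded the controls only in labelled overexpression replicate 3. The arrays are therefore called by their label throughout and each direction is that of the label. That array also stood apart across probes, with a Pearson's r of 0.790 to 0.844 with the other arrays against 0.881 to 0.973 between those (21507 probes, which are not independent replicates). It was scanned alone and, as recorded, was the only array on its slide, whereas the other arrays shared a slide. Control replicate 1 and labelled overexpression replicate 1 shared one scan (scan 1), and control replicates 2 and 3 and labelled overexpression replicate 2 another (scan 2). For these reasons, the difference at each locus is given with and without labelled overexpression replicate 3. The share of probes well above background was 68.4% to 74.5% per array, and saturated spots numbered 0 on each array.

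On each of the 6 arrays all 10 small heat shock protein loci were well above background, and all 10 were tested. Their intensities ran from 31.5 to 8618. Levels are given below as log2 of the intensity relative to the 75th percentile of the same array, so that a probe at that percentile has a level of 0. Levels of different probes are not compared with each other, since probes differ in their response.

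The main comparison asked whether these transcripts differ between the labelled overexpression leaves and the control leaves by more than replicates of one group differ. The fitted difference was lower in the labelled overexpression arrays for 9 of the 10 loci, where 49.7% of all 23752 probes tested were lower. The median over the 10 loci was a log2 difference of -1.96, against 0.0038 over all probes tested. None of the 10 passed the threshold (limma, 0 loci at an adjusted p under 0.05), with adjusted p from 0.132 to 0.859, where 0.0800% of all probes passed in either direction. At an unadjusted p under 0.05, 4 loci were lower, where 9.21% of all probes were. The median was -1.27 without labelled overexpression replicate 3 and -1.30 without control replicate 1, each with 0 loci past the threshold. With both arrays left out, an alternative added after the data were seen, it was -0.70. Under normexp background correction it was -0.99, and the differences of the 10 loci ran from -1.82 to 0.16, with 0 past the threshold. That correction added an offset of 50 to each intensity, which by itself makes log2 differences between dim spots smaller. How much of the change came from the offset was not tested.

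**Figure D1:**
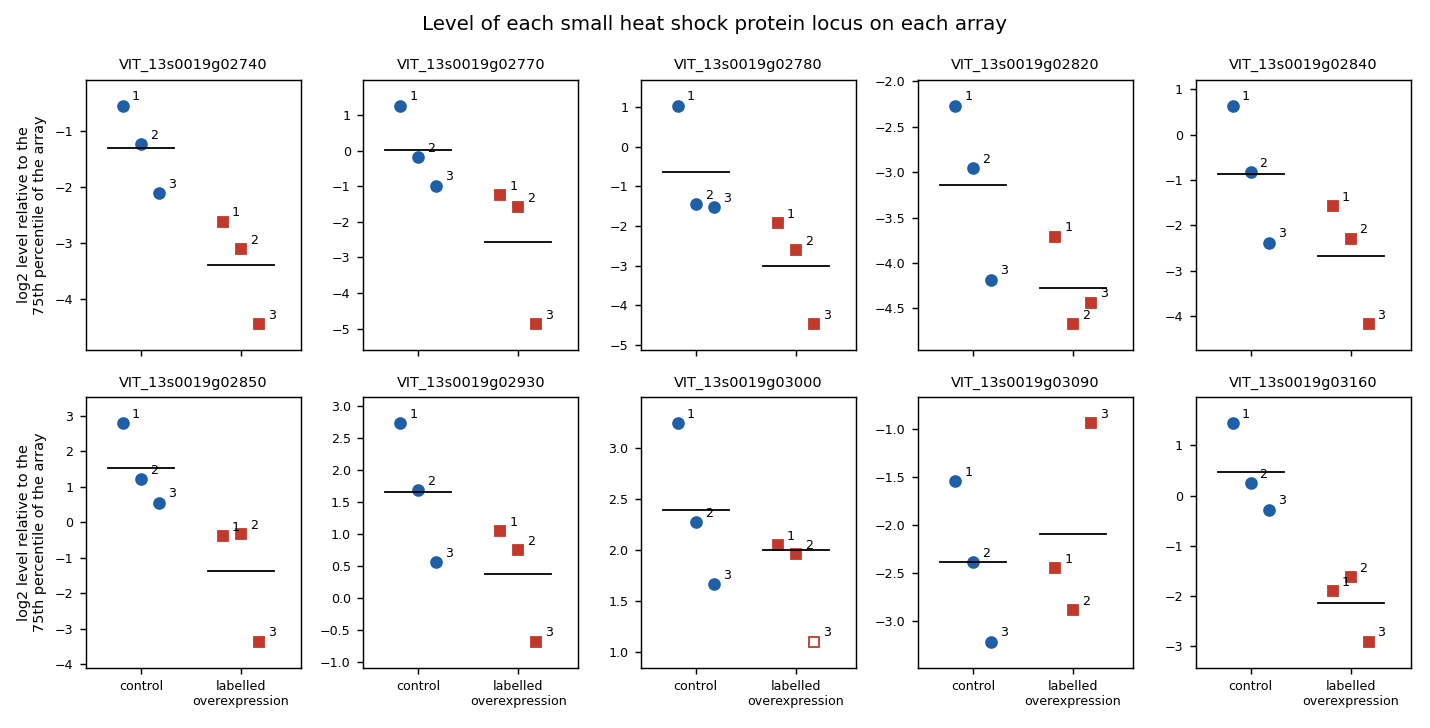
Level of each locus (log2 relative to the 75th percentile of the array, vertical axis, own scale per panel) on the 3 control arrays (blue circles) and the 3 labelled overexpression arrays (red squares), numbered by replicate, with the group mean as a line. The open square is an outlier spot that was left out of the fit and of the group mean. Control replicate 1 is the highest control array in all 10 panels.

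The groups did not overlap, with all labelled overexpression arrays below all control arrays, at 5 of the 9 loci with 6 usable spots. This was the case at 13.7% of the 21507 probes with 6 usable spots. An exact two-sided permutation test over the arrays gave p = 0.1 for each of these 5 loci, the smallest p that 3 arrays against 3 allow. Groups that do not overlap fix that p in advance, so it adds nothing to the separation. At the other 5 loci the same test gave p from 0.2 to 0.8.

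Of the 10 loci, VIT_13s0019g03160 had the largest difference relative to its spread. Its log2 level was 1.44, 0.24 and -0.28 in the controls (replicates 1, 2 and 3 in this order, here and below) and -1.92, -1.63 and -2.92 in the labelled overexpression arrays. The lowest control array lay 1.35 above the highest labelled overexpression array, the widest gap of the 5 loci. The means were 0.47 ± 0.88 and -2.16 ± 0.68 (SD, n = 3 each), and the limma difference was -2.62 (SE 0.55, 95% interval -3.96 to -1.29, adjusted p 0.132), or 6.15-fold lower. It was -2.24 (adjusted p 0.120) without labelled overexpression replicate 3 and -1.58 (adjusted p 0.531) under normexp. The difference was 3.33 times the pooled SD of the groups. The difference was -3.36 within scan 1 and -1.61 within scan 2. Between the groups lay 80.6% of the sum of squares of this probe, the highest share of the 10 loci. Over the 10 loci the share went down to 3.49%, with a median of 46.9%, where the median over all probes tested was 24.1%.

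VIT_13s0019g02850 had a level of 2.78, 1.21 and 0.55 in the controls and of -0.39, -0.34 and -3.36 in the labelled overexpression arrays. In intensity this ran from 6262 in control replicate 1 to 90.2 in labelled overexpression replicate 3, a 70.4-fold range after scaling. Labelled overexpression replicates 1 and 2 were close to each other, and replicate 3 lay far below both. The limma difference was -2.88 (SE 0.98, 95% interval -5.26 to -0.49, adjusted p 0.256), and -1.88 (adjusted p 0.220) without labelled overexpression replicate 3.

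VIT_13s0019g02740 had a level of -0.55, -1.24 and -2.11 in the controls and of -2.62, -3.11 and -4.44 in the labelled overexpression arrays. The groups were separated by 0.51, less than either step between neighbouring controls. Its limma difference was -2.09 (SE 0.60, 95% interval -3.55 to -0.63, adjusted p 0.201), which is 2.41 times the pooled SD, and -1.56 without labelled overexpression replicate 3. VIT_13s0019g02780 had a level of 1.02, -1.44 and -1.52 in the controls and of -1.92, -2.61 and -4.47 in the labelled overexpression arrays. Here control replicates 2 and 3 were nearly equal and lay closer to labelled overexpression replicate 1 than to control replicate 1. Its limma difference was -2.35 (SE 0.93, 95% interval -4.61 to -0.10, adjusted p 0.314). It was -1.62 (95% interval -3.75 to 0.51) without labelled overexpression replicate 3 and -1.52 (95% interval -3.52 to 0.49) without control replicate 1.

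VIT_13s0019g02770 had a level of 1.26, -0.18 and -0.99 in the controls and of -1.24, -1.60 and -4.87 in the labelled overexpression arrays. Only 0.26 separated its lowest control from its highest labelled overexpression array. Its limma difference of -2.60 (SE 1.09, 95% interval -5.24 to 0.04, adjusted p 0.337) became -1.45 (adjusted p 0.321) without labelled overexpression replicate 3. That array differed from the mean of the other labelled overexpression arrays by -3.45.

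At the other 5 loci the groups overlapped. VIT_13s0019g02820 had a level of -2.27, -2.96 and -4.18 in the controls and of -3.71, -4.67 and -4.44 in the labelled overexpression arrays. VIT_13s0019g02840 had a level of 0.63, -0.83 and -2.38 in the controls and of -1.58, -2.30 and -4.18 in the labelled overexpression arrays. At both loci control replicate 3 lay within the range of the labelled overexpression arrays. Their limma differences were -1.14 (95% interval -2.45 to 0.17, adjusted p 0.393) and -1.83 (95% interval -4.15 to 0.50, adjusted p 0.433). Without labelled overexpression replicate 3 they were -1.05 and -1.08, and without control replicate 1 they were -0.70 and -1.08. Under normexp they were -0.15 and -0.72. The intensities of VIT_13s0019g02820 were only 42.6 to 189, where the normexp offset of 50 makes log2 differences smaller.

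VIT_13s0019g02930 had a level of 2.73, 1.69 and 0.56 in the controls and of 1.05, 0.75 and -0.68 in the labelled overexpression arrays, so that labelled overexpression replicates 1 and 2 lay above control replicate 3. Its limma difference was -1.29 (95% interval -2.96 to 0.39, adjusted p 0.441). It was -0.76 without labelled overexpression replicate 3, -0.75 without control replicate 1 and -0.22 without both. VIT_13s0019g03000 had a level of 3.24, 2.27 and 1.67 in the controls and of 2.05 and 1.96 in labelled overexpression replicates 1 and 2. The scanner software marked the spot of labelled overexpression replicate 3 (1.11) as an outlier, and it was left out of the fit. The limma difference of VIT_13s0019g03000 was -0.39 (n = 3 and 2, 95% interval -1.67 to 0.90, adjusted p 0.750), smaller than the control SD of 0.80. With the outlier spot kept it was -0.69 (adjusted p 0.554), and without control replicate 1 it was 0.035.

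VIT_13s0019g03090 was the exception in direction. Its level was -1.55, -2.39 and -3.22 in the controls and -2.46, -2.89 and -0.95 in the labelled overexpression arrays. Labelled overexpression replicate 3 was the highest of all 6 arrays there, at an intensity of 480, while the other labelled overexpression arrays lay inside the control range. The limma difference was 0.29 (SE 0.64, 95% interval -1.27 to 1.85, adjusted p 0.859), and it became -0.29 (adjusted p 0.809) without that array and -0.13 without control replicate 3. At 7 of the 9 loci with 6 usable spots, by contrast, labelled overexpression replicate 3 was the lowest array, as it was at 32.7% of all such probes.

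Within a scan, labelled overexpression was lower than control at all 10 loci in scan 1 and at all 10 in scan 2. Of all probes with usable spots, 46.4% were lower in scan 1, 50% in scan 2 and 31.4% in both. In scan 1, with 1 array against 1, the differences ran from -3.36 to -0.91 with a median of -2.14. The control of that scan was replicate 1, the highest control at all 10 loci, so its differences rest on that array. In scan 2, with 1 array against 2, they ran from -1.61 to -0.01 with a median of -1.06. The smallest in scan 2 were -0.01 at VIT_13s0019g03000 and -0.08 at VIT_13s0019g03090. These differences have no replicate error of their own, and scan 3 held 1 array and no control.

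**Figure D2:**
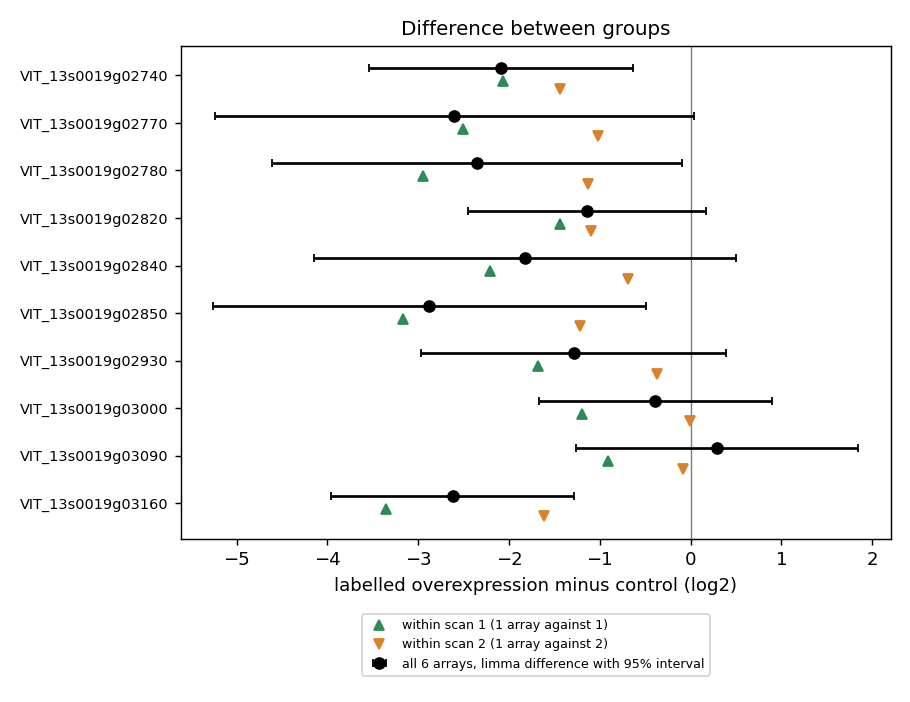
Labelled overexpression minus control (log2, horizontal axis) for each locus: limma difference over all 6 arrays with its 95% interval (black), and the difference within scan 1 (green) and within scan 2 (orange). The interval lies below 0 at 4 of the 10 loci, and both within-scan differences are below 0 at all 10. The control of scan 1 is the highest control array at all 10 loci.

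The spread between replicates was the other large feature of these loci. The 3 control arrays differed by 1.56 to 3.01 on the log2 scale, or 2.95-fold to 8.08-fold, with a median of 2.04. The median control range over all probes tested was 0.47. All 10 loci had a control range of at least 1, where 16.9% of all 23289 probes with 3 usable control spots did, and 6.78% of those probes had a range at least as large as the smallest of the 10. The widest was that of VIT_13s0019g02840, with control intensities of 1411, 459 and 198.

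At 6 of the 10 loci the control range was larger than the difference between the groups, and this was so at 57.6% of all probes with 3 usable control spots. The median SD was 1.03 among the controls and 0.98 among the labelled overexpression arrays, against 0.25 and 0.50 over all probes tested. Without labelled overexpression replicate 3 the median pooled SD was 0.89, against 0.30 over all probes. The differences between groups were likewise wide, with a median size of 1.96 against 0.39 over all probes. Over 20 other loci named between the members, described below, it was 1.31.

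**Figure D3:**
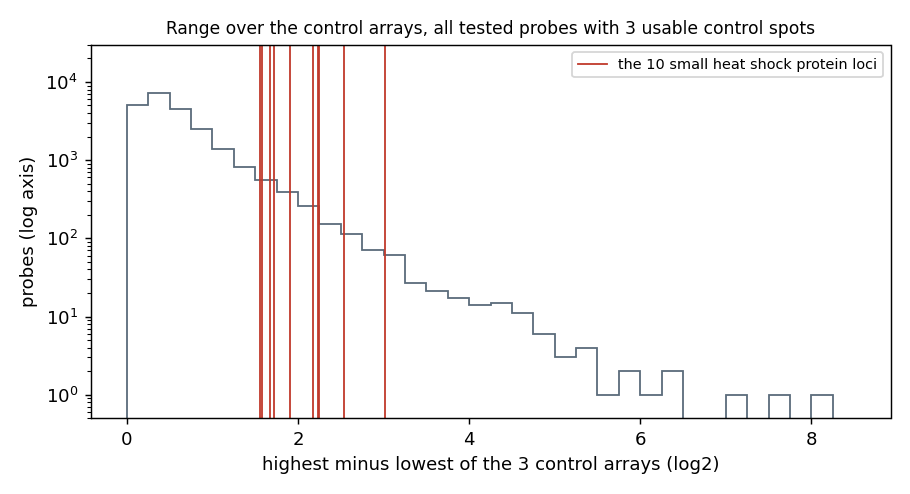
Number of tested probes (vertical log axis) by the range over the 3 control arrays (log2, horizontal axis, bins of 0.25), with the control range of each of the 10 loci as a red line. The 10 lines lie between 1.56 and 3.01, and the median of all probes is 0.47.

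The loci moved together from array to array. Control replicate 1 was the highest control and control replicate 3 the lowest at all 10 loci, an arrangement found at 23.0% of all probes with 3 usable control spots. Control replicates 2 and 3 shared a scan and, as recorded, a slide, and replicate 2 was above replicate 3 at all 10 loci, by 0.08 to 1.55 on the log2 scale, where 52.6% of all probes had that order. With each locus set to its own mean over the 6 arrays, the median over the loci was 2.04, 0.84 and -0.07 in the controls and -0.05, -0.59 and -2.09 in the labelled overexpression arrays. Control replicate 3 and labelled overexpression replicate 1 were thus almost level, and at 5 of the 10 loci labelled overexpression replicate 1 was the higher.

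Across the 6 arrays, Pearson's r between pairs of loci other than VIT_13s0019g03090 ran from 0.768 to 0.998, with a median of 0.943 over 36 pairs. The outlier spot of VIT_13s0019g03000 was kept for these values and for the medians per array above. With each group set to its own mean, which removes the difference between groups, the median was 0.932. The 9 pairs with VIT_13s0019g03090 had an r of -0.36 to 0.26, but of 0.618 to 0.970 over the 5 arrays without labelled overexpression replicate 3. These correlations describe 6 arrays. As recorded, all of them except labelled overexpression replicate 3 shared a slide, though not a single scan. Each of those arrays shared its scan with another array. Since the profiles are so alike, the counts over the 10 loci are not counts of independent observations.

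The 10 loci were also set against their neighbours in the order of locus names. Of 28 other loci named between the first and the last member, 20 were tested, with a median difference of 0.19, 9 of them lower and 11 higher. Whatever the direction, the median size of their differences was 1.31, against 1.96 over the 10 loci and 0.39 over all probes tested. The median share of the sum of squares between the groups was 57.4%, against 46.9% over the 10 loci and 24.1% over all probes. Wide differences were thus not particular to the 10 loci. Whether any of the 20 also encode small heat shock proteins is not known, since nothing used here describes them. None of the 20 passed the threshold (limma, 0 at an adjusted p under 0.05). At an unadjusted p under 0.05, 5 were lower and 5 higher, where 9.21% and 5.85% of all probes were. Their median control range was 0.63, and 8 of the 20 had a range of at least 1. Among the 17 of these loci that were well above background on all 6 arrays, 2 had an r of at least 0.9 with the mean profile of the small heat shock protein loci, against 1.21% of the 21352 other probes. The differences between these neighbours and the 10 loci were not tested.

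**Figure D4:**
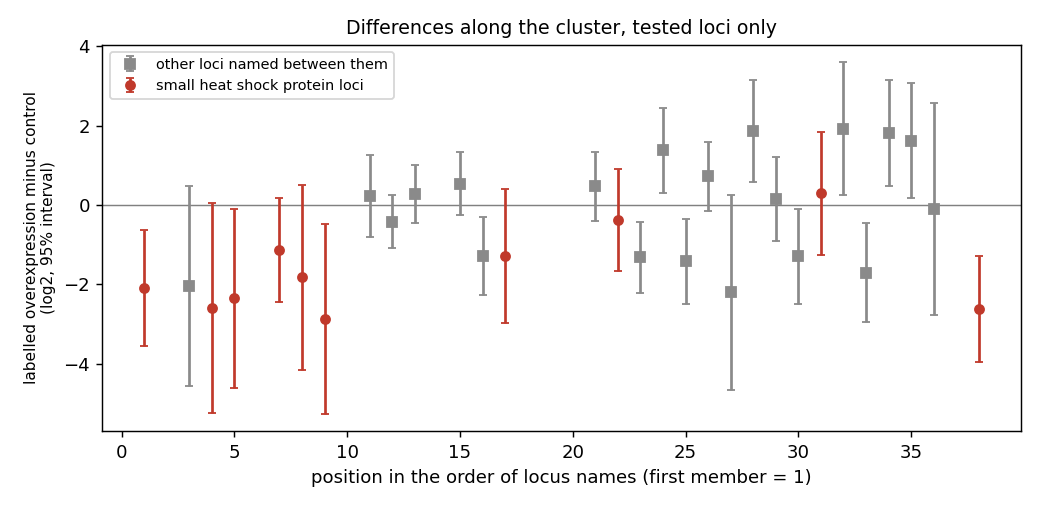
Labelled overexpression minus control (log2, vertical axis, with 95% interval) for the tested loci in the order of their names (horizontal axis), the 10 small heat shock protein loci as red circles and 20 other loci as grey squares. The red points lie between -2.88 and 0.29, and the grey points between -2.21 and 1.92 on both sides of 0.

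The probes most like the family over the 6 arrays were taken as those with the highest Pearson's r with its mean profile among 21352 other probes. These were VIT_18s0117g00390 (r 0.995, Spearman's rho 0.943) and VIT_07s0129g00490 (r 0.988, rho 0.943). Without control replicate 1 and labelled overexpression replicate 3, the arrays farthest from the middle of the profile, r was 0.970 and 0.918. Their differences between arrays were far smaller in size. The level of VIT_18s0117g00390 was -1.41, -1.64 and -1.79 in the controls and -1.75, -1.85 and -2.02 in the labelled overexpression arrays. The level of VIT_07s0129g00490 was 4.24, 4.02 and 3.79 in the controls and 3.71, 3.75 and 3.38 in the labelled overexpression arrays. As the highest of many values over 6 arrays, these r values are a description only.

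In the authors' processed table, the column of labelled overexpression replicate 3 matched the mean of the scanner signals of labelled overexpression replicates 1 and 2, up to 1 common multiple, within 0.1% at all 10 loci and at 99.97% of its 23065 probes. For VIT_13s0019g02770 that table gave 2239, 826 and 473 in the controls and 395, 309 and 339 in the labelled overexpression columns, while the scanner intensity of replicate 3 was 31.5. Fitted with limma on the log2 of that table, 1 of the 10 loci passed, where 13.5% of all probes of the table passed. It was VIT_13s0019g03160, with a difference of -2.22 and an adjusted p of 0.0281. That fit counted the column of labelled overexpression replicate 3 as a replicate. Its adjusted p therefore does not rest on 3 separate labelled overexpression arrays. With that column left out, an alternative added after the data were seen, the difference of VIT_13s0019g03160 was -2.24 and its adjusted p 0.115, and 0 loci passed.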

How the data were processed

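Per the file headers, the deposited scanner files hold spot intensity from Agilent's Feature Extraction software (version 10.5.1.1), after subtraction of background and of a spatial trend within the array. The authors' processed table holds intensity on a linear scale, and how it was scaled is not given in the sources used here. Outlier spots were set to missing, control spots were dropped, and log2 intensity was taken relative to each array's 75th percentile. Outlier spots were kept for the profiles over the arrays and for the correlations between loci. Tested probes had at least 2 usable spots per group and, outlier spots aside, exceeded background clearly by the scanner's mark on all arrays of one group or of both. Groups and replicate numbers came from the sample titles. The comparison used limma (version 3.58.1, R version 4.3.3) without covariates, with Benjamini-Hochberg adjustment over all 23752 probes and a threshold of 0.05. The fit was run on simulated data in which all probes had the same spread between replicates. That run therefore does not show how the fit performs at loci as variable as these. Members, lists and tests were chosen with earlier results of these data known. The named loci are the 10 members, the CARPO probe and the 2 probes most like the family. Because no table names the loci, planned lists of other heat shock genes and of leaf markers were not run. Normexp used median spot signals and an offset of 50. Alternatives were other scalings, background correction, filters, variance models, array weights, the processed table, outlier spots kept, blocks, and leaving out arrays. The number of arrays limits the precision.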

Additional observations from a re-analysis of the deposited data

How the results depend on the processing

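Over the alternatives run, limma called 0 of the 10 loci in all but the processed table (1, VIT_13s0019g03160). The last column of that table is not an independent replicate, as described above. The median difference of -1.96 lay between -2.54 and -1.27 in the fits that leave out a single array and moved to -0.70 without control replicate 1 and labelled overexpression replicate 3. It was -0.99 under normexp. The count of all changed probes, 19, became 0 under normexp (1548 at an unadjusted p under 0.05) and 0 without a filter on dim probes (3404), which moved the median of all probes to 0.13 and 0.12. It became 7 with the filter on all 6 arrays, 123 with array weights, 45 with scan and 69 with slide as a block, 3114 in the processed table and 94 when the last column of that table was dropped. It ran from 0 to 116 with 1 array left out, being 0 without any control or labelled overexpression replicate 1 (2087 to 2950 unadjusted), 116 without replicate 2 and 101 without replicate 3, and it was 0 (3824 unadjusted) with control replicate 1 and labelled overexpression replicate 3 both left out. The cause of these moves was not tested.

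With the replicate number as a block the count was 0 (3096 unadjusted), the median of the loci stayed at -1.96, and 8 of the 10 loci had an unadjusted p under 0.05 in place of 4, with a lowest adjusted p of 0.248. The deviations from the group means correlated at 0.221, 0.023 and -0.023 for arrays of the same number. These values lay inside the span of -0.297 to 0.275 for arrays of different numbers. So few correlations cannot decide whether arrays of the same number were paired. For replicates 1 and 2, the control and the labelled overexpression array came from the same scan and the same recorded slide, so number and scan are not separable there.

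Of 208 refits of single loci, 198 kept direction and side of the threshold and 9 reversed, none of these with a call. VIT_13s0019g03090 turned to -0.15 with array weights, -0.30 in the processed table, -0.29 without its last column, -0.44 with scan and -0.29 with slide as a block, -0.29 without labelled overexpression replicate 3 and -0.13 without control replicate 3. Apart from array weights and leaving out control replicate 3, these fits all set aside the signal of labelled overexpression replicate 3. They are therefore not separate reversals. The difference of VIT_13s0019g03090 ran from -0.29 to 0.71 with 1 array left out. VIT_13s0019g03000 turned to 0.035 without control replicate 1, also when labelled overexpression replicate 3 was left out with it, ran from -0.75 to 0.035 with 1 array left out, and was not tested without labelled overexpression replicate 1 or 2.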
